A study of Homo sapiens with 20 samples.

Results

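The 10 genes described here, CDH1, EPCAM, ESRP1, CDH2, VIM, FN1, ZEB1, ZEB2, SNAI1 and SNAI2, mark or control the epithelial and mesenchymal states of a cell. They were chosen by gene symbol, and each had a row among the 21201 symbols of the RNA sequencing table. RNA was sequenced from 5 established human tumor cell lines that were grown for 24 h with 1 µM of the tankyrase (TNKS1/2) inhibitor G007-LK or with 0.01% DMSO as the vehicle. The study calls 4 lines TNKSi-sensitive, namely the lung line ABC-1, the ovarian line OVCAR-4, the kidney line UO-31 and the colorectal line COLO 320DM, and uses the colon line RKO as an insensitive comparison. For every line there were 2 biological replicates, as labeled, of each treatment, which makes 20 libraries. Each group is thus 1 line, so that tissue of origin and line cannot be told apart.

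Epithelial cells are held together by E-cadherin (CDH1) and the adhesion molecule EPCAM, and the splicing factor ESRP1 maintains the epithelial forms of many transcripts. Mesenchymal cells instead carry N-cadherin (CDH2), the intermediate filament vimentin (VIM) and the matrix glycoprotein fibronectin (FN1). The zinc finger factors ZEB1, ZEB2, SNAI1 (SNAIL) and SNAI2 (SLUG) bind E-box sequences and repress CDH1, and carcinoma cells often hold intermediate states between these poles.

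Values are RPKM, that is, reads per kb of gene length scaled to the number of mapped reads of the library, as computed by the authors. Whole reads could be recovered from the spacing of the values for 99.95% of the genes tried, within 0.05 reads. The libraries held 25846695 to 30268779 reads in genes, whereas the mapped reads in the RPKM denominators, estimated from the same spacing, ran from 11902062 to 29329706. Gene reads divided by mapped reads came to 2.02 to 2.17 in the OVCAR-4 libraries, 1.17 to 1.42 in those of UO-31 and 0.966 to 1.17 in the other lines. An OVCAR-4 gene with the same share of the gene reads as in RKO therefore has about 2 times the RPKM, and levels between lines are given on both scales where that changed their order. The median log2 change of all genes with G007-LK lay at -0.14 for ABC-1 and at -0.11 for OVCAR-4. Changes relative to this shift, after the median ratio between libraries of a line had been set to 1, are called rescaled changes.

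The labeled tissues were compared with fixed marker genes. The intestinal factor CDX2 was at a mean of 747 RPKM in COLO 320DM and 7.15 RPKM in RKO with DMSO, although CDX1 and VIL1 were below 0.1 RPKM in both. PAX8, of kidney and Müllerian epithelium, was at 65 RPKM in UO-31 and 81.3 RPKM in OVCAR-4, and SOX17 at 194 RPKM in OVCAR-4. Of the other ovary markers, MUC16 was at 7.92 RPKM in OVCAR-4, but WT1 was nearly absent there, at 0.095 RPKM, below the 0.295 RPKM in UO-31. The lung markers SFTPB, SFTPC and NAPSA had DMSO means below 0.2 RPKM in ABC-1. Of the blood genes, PTPRC was at 3.07 RPKM in COLO 320DM and below 0.1 RPKM in the other lines.

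The upstream sequences of FN1 and VIM are shown because these are the members with the largest rises. Each is the 250 bases before the start of the gene in the RefSeq promoter table (GRCh38.p14), 5′ to 3′ on the strand of the gene. The FN1 window is chr2:215436069-215436318 on the minus strand and the VIM window chr10:17227991-17228240 on the plus strand. Capitals mark a match to a searched motif.
FN1: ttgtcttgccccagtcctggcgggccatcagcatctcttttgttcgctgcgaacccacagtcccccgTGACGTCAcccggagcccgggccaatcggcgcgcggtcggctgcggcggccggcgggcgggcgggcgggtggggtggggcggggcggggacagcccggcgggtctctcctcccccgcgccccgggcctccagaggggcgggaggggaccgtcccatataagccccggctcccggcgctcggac
VIM: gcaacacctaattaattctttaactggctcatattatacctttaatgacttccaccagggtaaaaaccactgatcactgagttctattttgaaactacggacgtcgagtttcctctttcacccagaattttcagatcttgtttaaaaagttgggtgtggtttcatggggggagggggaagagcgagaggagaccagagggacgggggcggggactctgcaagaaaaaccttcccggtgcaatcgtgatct
The motifs searched on both strands were the E-box CACCTG of the ZEB and SNAIL factors, the cAMP response element TGACGTCA, the TEAD motif GGAATG, the AP-1 motif TGANTCA and the TCF/LEF motif CTTTGAT. FN1 held 1 match, to the cAMP response element, whose first base lies 183 bases before the start. This element occurs in 1.65% of the 35116 windows of the same length. The VIM window held none of the 5, which says only that these letters are not in this window. Of all windows, 17.5% held the E-box, 11.9% the TEAD motif, 6.57% the AP-1 motif and 2.26% the TCF/LEF motif. The table had entries for 5 of the 10 members, and the windows of CDH1, EPCAM, SNAI1, SNAI2 and ESRP1 were not analysed here.

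In DMSO, the lines fell into an epithelial pair, OVCAR-4 and ABC-1, a VIM-high pair, UO-31 and COLO 320DM, and RKO, which had ZEB1 without most other mesenchymal members. The order of the lines was tested between neighbors in mean DMSO level, which gave 4 pairs for each of the 10 genes. Of these 40 pairs, 32 passed an adjusted p of 0.05 (limma on log2(RPKM + 0.5), 10 DMSO libraries), beside 63.2% of all such pairs of the genes tested. The 8 that did not pass all lie between lines at which the gene was at most a few RPKM. A gene entered this test if any 1 line reached 1 RPKM, and the libraries tested had also set the order. The p-values therefore describe the gaps and do not support the division of the lines.

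CDH1 (GRCh37 chromosome 16, 68771195 to 68869440) had 106 and 111 RPKM in the DMSO libraries of OVCAR-4 and 69.2 and 80.8 RPKM in those of ABC-1. In UO-31 it had 0.402 and 0.389 RPKM, in COLO 320DM 0.304 and 0.149 RPKM, and in RKO 0.0581 and 0.104 RPKM. The gap between ABC-1 and UO-31 was 6.39 on the log2 scale (limma adjusted p = 5.4e-13), so that both epithelial lines lay far above the other three. CDH1 still had 8 to 43 reads per DMSO library in UO-31, COLO 320DM and RKO. As these are bulk libraries, fewer cells with a transcript and less of it per cell cannot be told apart. OVCAR-4 was 0.54 above ABC-1 (limma adjusted p = 0.00104), but when scaled to gene reads the order turned, with ABC-1 0.44 higher (limma adjusted p = 0.00438).

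ESRP1 (chromosome 8, 95653302 to 95719694) followed the same division. Its DMSO libraries held 77.4 and 80.8 RPKM in OVCAR-4 and 44.2 and 49.8 RPKM in ABC-1, against at most 0.0985 RPKM in any DMSO library of the other lines. In COLO 320DM, 1 DMSO library held 11 ESRP1 reads and the other 0, which allows up to 0.0314 RPKM. OVCAR-4 was 0.75 above ABC-1 in RPKM on the log2 scale (limma adjusted p = 4.1e-05). When scaled to gene reads, ABC-1 and OVCAR-4 did not differ past the threshold (OVCAR-4 lower by 0.23 on the log2 scale, limma adjusted p = 0.0509).

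EPCAM (chromosome 2, 47572297 to 47614740) was more graded. ABC-1 had 557 and 609 RPKM, OVCAR-4 454 and 468 RPKM, UO-31 13.7 and 12 RPKM, RKO 2.71 and 2.73 RPKM, and COLO 320DM 1.10 and 1.24 RPKM. All 4 neighboring pairs differed past the threshold (highest limma adjusted p = 0.00179), and UO-31 thus held EPCAM at a level between the epithelial pair and the other lines while CDH1 was near 0.

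VIM (chromosome 10, 17270240 to 17279592) had a mean above 1 RPKM in every line. Its DMSO libraries held 1927 and 1925 RPKM in UO-31, 540 and 580 RPKM in COLO 320DM, 44.9 and 44.8 RPKM in OVCAR-4, 13.2 and 14.7 RPKM in RKO, and 1.56 and 1.87 RPKM in ABC-1. No 2 of these groups overlapped, and the 4 neighboring pairs passed the test (highest limma adjusted p = 8.5e-10). RKO, with almost no CDH1, therefore had less VIM than the CDH1-high line OVCAR-4. The order between these 2 lines was the same after scaling to gene reads.

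FN1 (chromosome 2, 216225163 to 216300796) was highest in UO-31, with 366 and 369 RPKM, followed by ABC-1 with 132 and 152 RPKM. OVCAR-4 had 9.42 and 9.66 RPKM and COLO 320DM 1.17 and 1.43 RPKM. In RKO, 4 and 2 reads gave 0.0159 and 0.00812 RPKM. ABC-1, with the least VIM, was thus second in FN1, and COLO 320DM, second in VIM, had little FN1.

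CDH2 (chromosome 18, 25512843 to 25757910) marked UO-31, with 121 and 116 RPKM in DMSO. OVCAR-4 had 6.04 and 6.10 RPKM beside its high CDH1, ABC-1 0.511 and 0.684 RPKM, and COLO 320DM 0.109 and 0.146 RPKM. All 4 RKO libraries had 0 CDH2 reads, which allows at most 0.025 RPKM at a limit of 3 reads. VIM-high COLO 320DM thus had almost none of either cadherin.

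The 4 repressors had different distributions. ZEB1 (chromosome 10, 31607424 to 31818742) had 45.7 and 47.9 RPKM in RKO, and 2.05 and 3.31 RPKM in COLO 320DM and 2.26 and 2.37 RPKM in UO-31, which did not differ past the threshold (0.15 on the log2 scale, limma adjusted p = 0.378, although 0.34 and limma adjusted p = 0.0202 when scaled to gene reads). OVCAR-4 and ABC-1 had 3 to 6 ZEB1 reads per DMSO library, at most 0.0803 RPKM. ZEB2 (chromosome 2, 145121931 to 145278624) had 3.87 and 5.29 RPKM in COLO 320DM and 2.89 and 2.91 RPKM in UO-31, and 1 to 3 reads per DMSO library in the other lines. RKO thus had high ZEB1 and almost no ZEB2.

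SNAI1 (chromosome 20, 48599517 to 48605423) did not follow the division by CDH1. It had 14.2 and 14.6 RPKM in OVCAR-4, 9.35 and 9.37 RPKM in COLO 320DM, 5.51 and 4.32 RPKM in UO-31, 2.56 and 2.97 RPKM in RKO, and 0.627 and 0.522 RPKM in ABC-1. Scaled to gene reads, COLO 320DM was above OVCAR-4 by 0.34 on the log2 scale (limma adjusted p = 0.0155), the reverse of the RPKM order. SNAI2 (chromosome 8, 49830157 to 49834299) had 4.17 and 4.43 RPKM in UO-31 and 0.284 and 0.425 RPKM in ABC-1. It had 1 read per DMSO library in OVCAR-4, 1 and 0 in COLO 320DM and 0 in all 4 libraries of RKO, which allows at most 0.0518 RPKM.

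**Figure D1:**
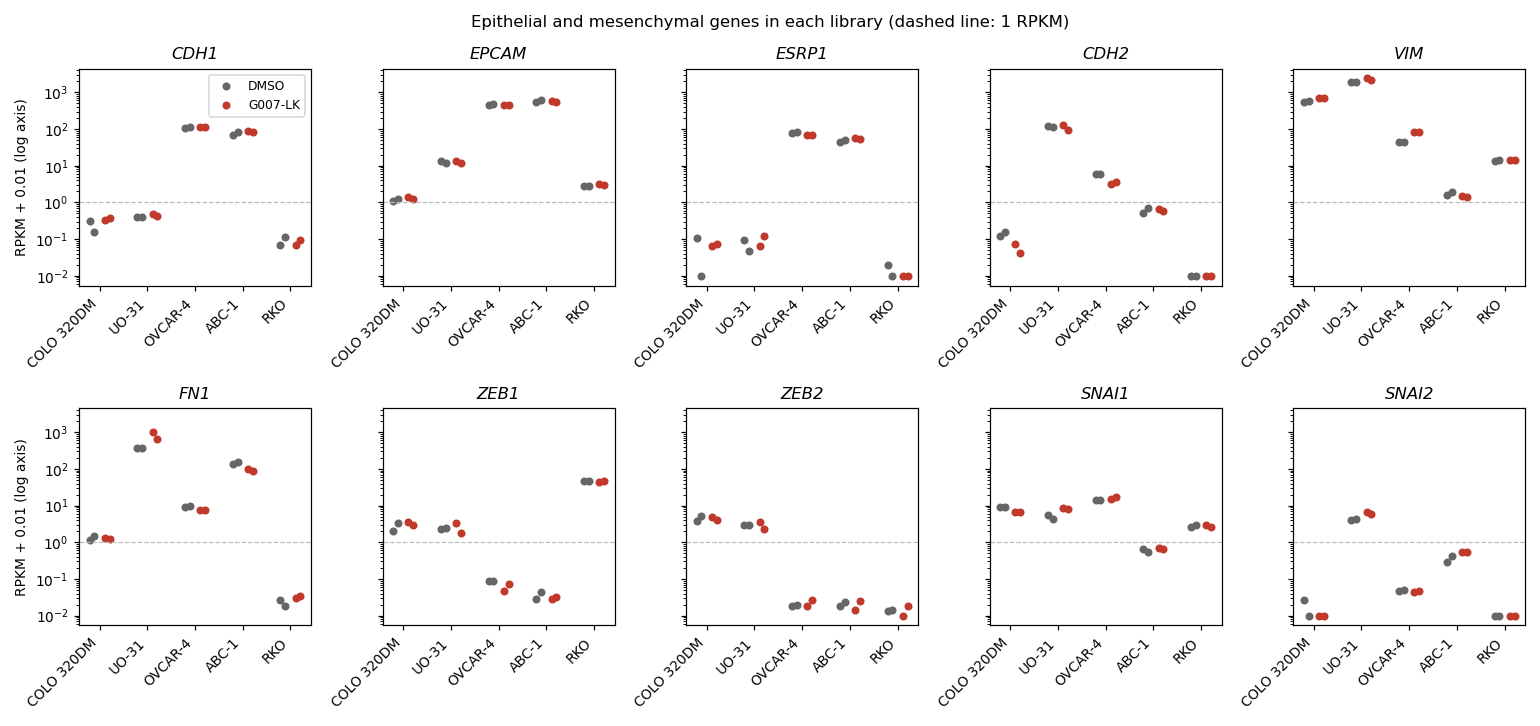
RPKM + 0.01 (log axis) of the 10 genes by library and cell line, with DMSO in gray and G007-LK in red, 2 libraries per group, and a dashed line at 1 RPKM. CDH1 and ESRP1 lie above 40 RPKM in OVCAR-4 and ABC-1 and below 1 RPKM in the other lines, while ZEB1 is highest in RKO and VIM in UO-31.

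Some members passed the test in each TNKSi-sensitive line, in different genes and directions. The share called is to be read against that of all genes, which ran from 4.11% in RKO to 57.9% in ABC-1. On the rescaled values it ran from 2.71% in RKO to 63.8% in ABC-1. Members were tested in a line where their mean over its 4 libraries was at least 1 RPKM, with limma on log2(RPKM + 0.5), two-sided, adjusted over all genes tested. In UO-31, FN1, SNAI1 and VIM rose. OVCAR-4 showed a rise of VIM and SNAI1 with a fall of CDH2, FN1 and ESRP1, and ABC-1 a fall of FN1 with a rise of CDH1 and ESRP1. COLO 320DM had a rise of VIM and a fall of SNAI1. Since only 4 to 8 members passed the filter in a line, these counts do not describe all 10. The counts in ABC-1 and RKO were near the share of all genes. When rescaled, COLO 320DM had 1 member higher and 1 lower of 6, beside 38.6% of all genes. UO-31 then had 3 higher of 8 beside 30.1%, and OVCAR-4 4 higher and 2 lower of 7 beside 47.0%. With so few members tested, the count of no line is read as a trait of the members.

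In UO-31, 3 of 8 members tested passed, all higher, beside 13.4% of all genes tested. The median log2 change of these members was 0.16, and that of all genes -0.04. FN1 had 366 and 369 RPKM with DMSO and 1029.5 and 669 RPKM with G007-LK, so that both treated libraries lay far above both controls and also apart from each other. The means were 367 ± 2.1 and 849 ± 255 RPKM (SD, n = 2 each), and the log2 change was 1.18 (standard error 0.11, limma adjusted p = 2.7e-10). In recovered reads this was 69961 and 71174 against 177201 and 141346. The standard error and p rest on the spread that limma shares over genes and do not measure the wide spread of FN1 itself. Without the filter on RPKM, 0 members were called in UO-31, FN1 included, beside 4.32% of all genes. The FN1 rise was 0.86 without G007-LK replicate 1 and 1.49 without replicate 2. The 5 fibroblast markers, mostly COL1A1, summed to 107 to 110.2 RPKM with DMSO and to 120.5 to 151 RPKM with G007-LK in these libraries, DCN and PDGFRA staying below 1 RPKM in DMSO. Their part in the result was not tested.

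SNAI1 in UO-31 had 5.51 and 4.32 RPKM with DMSO and 8.42 and 8.14 RPKM with G007-LK, without overlap. The log2 change was 0.70 (standard error 0.22, limma adjusted p = 0.0136). Without DMSO replicate 1 or 2, the SNAI1 change was 0.86 or 0.55. It did not pass there, but each fit left 1 library in a group and few genes of any kind passed. SNAI2, the related repressor, had 4.17 and 4.43 RPKM with DMSO and 6.6 and 6 RPKM with G007-LK. Its log2 change of 0.50 did not pass as deposited (limma adjusted p = 0.119) and did when rescaled (0.54, limma adjusted p = 0.00827). The SNAI2 change ran from 0.44 to 0.56 when 1 library was left out. It passed without either G007-LK replicate, where many more genes of any kind passed too.

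VIM in UO-31 had 1927 and 1925 RPKM with DMSO and 2398 and 2130.0 RPKM with G007-LK. The log2 change was 0.23 (standard error 0.06, limma adjusted p = 0.00455), and rescaling removed the call (0.28, limma adjusted p = 0.119). When 1 library was left out, the VIM change ran from 0.15 to 0.32. It did not pass without DMSO replicate 1 or 2, where few genes of any kind passed, or without G007-LK replicate 1. CDH2 had 121 and 116 RPKM with DMSO and 127 and 93.5 RPKM with G007-LK (log2 change -0.12, limma adjusted p = 0.635), so that the treated libraries lay on both sides of the controls. ZEB1 (0.09), ZEB2 (0.00) and EPCAM (-0.05) did not pass in UO-31 either (lowest limma adjusted p = 0.868). The G007-LK libraries of UO-31 differed in gene reads per mapped read, at 1.42 and 1.17. Without G007-LK replicate 1, CDH2 (-0.34) and ZEB2 (-0.27) were lower, beside a median of -0.20 for all genes. Without replicate 2, ZEB1 (0.46) and ZEB2 (0.27) were higher, beside a median of 0.11. The values of these 3 genes thus turned with the library left out, as did the median of all genes.

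In OVCAR-4, 5 of 7 members tested passed, 2 higher and 3 lower (4 and 2 when rescaled), beside 51.5% of all genes tested (47.0% when rescaled). Of all genes, 1564 were higher and 4841 lower as deposited, and 2989 and 2856 when rescaled. The median log2 change of the members was -0.02, that of all genes -0.11. VIM had 44.9 and 44.8 RPKM with DMSO and 83.9 and 80.7 RPKM with G007-LK, replicates that were close together and groups far apart. The means were 44.9 ± 0.077 and 82.3 ± 2.24 RPKM (SD, n = 2 each), and the log2 change 0.87 (standard error 0.04, limma adjusted p = 2.8e-08), or 0.98 rescaled (limma adjusted p = 1.7e-07). In this line with high CDH1, the mesenchymal filament thus rose while the mesenchymal cadherin fell. CDH2 had 6.04 and 6.10 RPKM with DMSO and 3.24 and 3.68 RPKM with G007-LK, a log2 change of -0.73 (standard error 0.09, limma adjusted p = 5.0e-05), or -0.63 rescaled (limma adjusted p = 3.2e-04). Both calls, of VIM and of CDH2, passed without any 1 library (highest limma adjusted p = 0.00515).

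FN1 in OVCAR-4 fell from 9.42 and 9.66 RPKM to 7.42 and 7.63 RPKM, a log2 change of -0.32 (limma adjusted p = 0.00231), or -0.22 rescaled (limma adjusted p = 0.0198). ESRP1 had 77.4 and 80.8 RPKM with DMSO and 70.4 and 67.9 RPKM with G007-LK, without overlap. Its log2 change of -0.19 passed as deposited (limma adjusted p = 0.00268), but it was -0.08 when rescaled (limma adjusted p = 0.123) and lost without DMSO replicate 2 (-0.16, limma adjusted p = 0.0545). SNAI1 went from 14.2 and 14.6 RPKM to 15.6 and 17.3 RPKM, a log2 change of 0.18 (limma adjusted p = 0.0314), or 0.29 rescaled (limma adjusted p = 0.00243). This SNAI1 call was lost without DMSO replicate 1 or 2 or without G007-LK replicate 2 (0.16, 0.20 and 0.11, limma adjusted p = 0.146, 0.0898 and 0.261). CDH1, at 106 and 111 RPKM with DMSO and 112 and 115 RPKM with G007-LK, did not pass as deposited (0.06, limma adjusted p = 0.207) and passed as higher when rescaled (0.18, limma adjusted p = 0.00167). EPCAM had 454 and 468 RPKM with DMSO and 457 and 452 RPKM with G007-LK. Its change was -0.02 as deposited (limma adjusted p = 0.614) and 0.09 when rescaled (limma adjusted p = 0.0179), so that its direction depends on the scaling.

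In ABC-1, 3 of 5 members tested passed, 2 higher and 1 lower, beside 57.9% of all genes tested. The members' median log2 change was -0.09 and that of all genes -0.14. FN1 had 132 and 152 RPKM with DMSO and 101 and 90.6 RPKM with G007-LK, both treated libraries below both controls. It fell, with means of 142 ± 13.9 and 95.7 ± 7.16 RPKM (SD, n = 2 each) and a log2 change of -0.57 (standard error 0.06, limma adjusted p = 2.3e-17), or -0.41 rescaled (limma adjusted p = 2.4e-05), and passed without any 1 library (highest limma adjusted p = 7.4e-05). CDH1 had 69.2 and 80.8 RPKM with DMSO and 88.5 and 82.8 RPKM with G007-LK, close but without overlap. The log2 change was 0.19 (standard error 0.07, limma adjusted p = 0.0108) and 0.35 rescaled (limma adjusted p = 1.2e-04). ESRP1 had 44.2 and 49.8 RPKM with DMSO and 57.2 and 52.0 RPKM with G007-LK, a log2 change of 0.21 (limma adjusted p = 0.00994) and 0.37 rescaled (limma adjusted p = 6.5e-05). Both rises, of CDH1 and of ESRP1, lost their calls in 1 fit over all 20 libraries. CDH1 did not pass without DMSO replicate 1 (0.08), G007-LK replicate 1 (0.15) or G007-LK replicate 2 (0.24, limma adjusted p = 0.265, 0.346 and 0.101). The same held for ESRP1 (0.13, 0.15 and 0.28, limma adjusted p = 0.116, 0.39 and 0.0722).

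EPCAM in ABC-1 had 557 and 609 RPKM with DMSO and 564 and 530 RPKM with G007-LK, which overlapped. The log2 change was -0.09 (limma adjusted p = 0.0925) and 0.06 rescaled (limma adjusted p = 0.328), so that EPCAM, unlike CDH1 and ESRP1, had no call and no fixed direction. Without DMSO replicate 1 the EPCAM change was -0.16, beside a median of -0.19 for all genes. VIM stayed low, at 1.56 and 1.87 RPKM with DMSO and 1.47 and 1.42 RPKM with G007-LK (-0.18, limma adjusted p = 0.236). SNAI2, below the filter, had 15 and 21 reads with DMSO and 30 and 31 with G007-LK.

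In COLO 320DM, 2 of 6 members tested passed, 1 higher and 1 lower, beside 19.3% of all genes tested. The median log2 change was 0.04 for these members and -0.01 for all genes. VIM had 540 and 580 RPKM with DMSO and 719 and 702 RPKM with G007-LK, and the groups lay well apart. The log2 change was 0.34 (standard error 0.06, limma adjusted p = 6.7e-04), and it passed without any 1 library (highest limma adjusted p = 0.00643). SNAI1 had 9.35 and 9.37 RPKM with DMSO and 6.56 and 6.50 RPKM with G007-LK, with replicates almost equal. It fell by 0.49 on the log2 scale (standard error 0.14, limma adjusted p = 0.0165). Without G007-LK replicate 1 or 2 its change was -0.49 and -0.48. It did not pass there, but each fit left 1 library in a group and fewer genes of any kind passed. ZEB1 had 2.05 and 3.31 RPKM with DMSO and 3.59 and 3.00 RPKM with G007-LK, which overlapped (0.28, limma adjusted p = 0.295). Without DMSO replicate 2 the ZEB1 change was 0.57, beside a median of 0.07 for all genes. EPCAM (0.11), ZEB2 (-0.03) and FN1 (-0.03) did not pass (lowest limma adjusted p = 0.647). CDH2 had 14 and 16 reads with DMSO and 8 and 4 with G007-LK and was below the filter.

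In RKO, 0 of 4 members tested passed, beside 4.11% of all genes tested, and 1, EPCAM, had an unadjusted p under 0.05 (0.0464 from limma). EPCAM had 2.71 and 2.73 RPKM with DMSO and 3.18 and 2.97 RPKM with G007-LK (log2 change 0.15, limma adjusted p = 0.223). ZEB1 had 45.7 and 47.9 RPKM with DMSO and 45.4 and 46.0 RPKM with G007-LK (-0.04), VIM 13.2 and 14.7 against 14 and 14.4 RPKM (0.03), and SNAI1 2.56 and 2.97 against 3.03 and 2.56 RPKM (0.01). The adjusted p of these 3 genes were 0.562, 0.818 and 0.956 from limma.

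**Figure D2:**
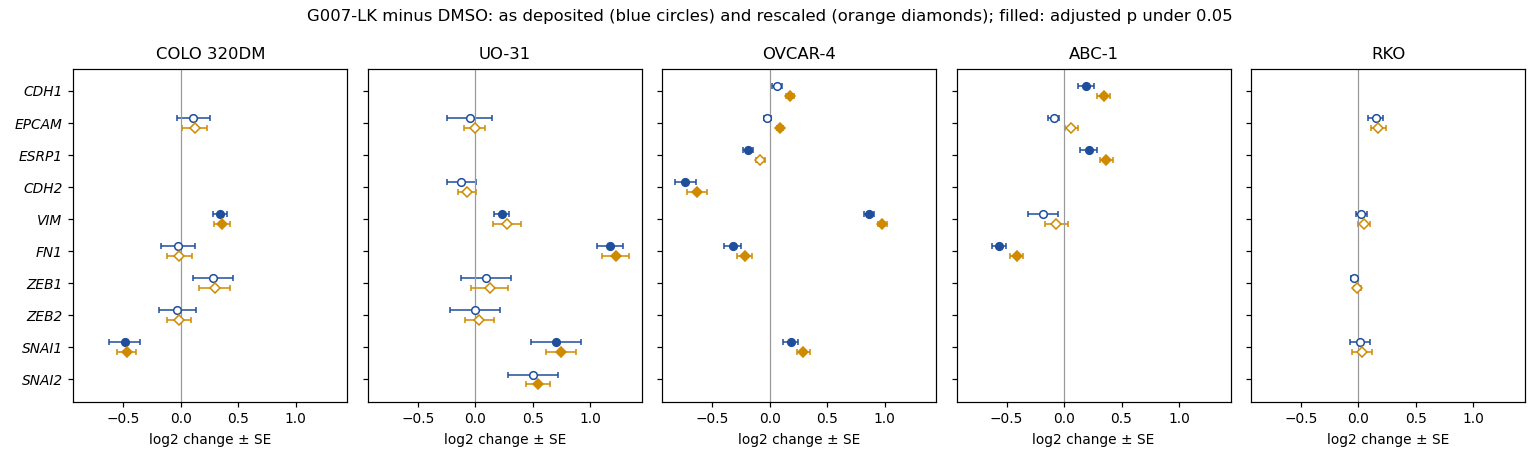
Log2 change (G007-LK minus DMSO) with its standard error for each member tested in the 5 lines, from the deposited RPKM (blue circles) and the rescaled values (orange diamonds), filled where the adjusted p was under 0.05. FN1 lies at 1.18 in UO-31 and at -0.57 in ABC-1, and VIM reaches 0.87 in OVCAR-4.

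The differences in response between lines were tested as interactions. Against RKO, VIM differed in COLO 320DM by 0.32 (limma adjusted p = 0.039, 1 of 4 members, beside 11% of all genes) and in OVCAR-4 by 0.84 (limma adjusted p = 6.2e-06, 2 of 3 members, beside 37.4%). The OVCAR-4 difference passed in all 8 fits that left out 1 library, the COLO 320DM difference in 2 of 8 (highest limma adjusted p = 0.192). EPCAM differed from RKO in OVCAR-4 by -0.17 (limma adjusted p = 0.0264) and in ABC-1 by -0.24 (limma adjusted p = 0.0219, 1 of 2 members, beside 48.8%), and both were lost on the rescaled values (-0.06 each, limma adjusted p = 0.377 and 0.417). They passed in 3 and 4 of the 8 fits without 1 library, respectively (highest limma adjusted p = 0.115). In UO-31, 0 of 4 members passed, beside 5.21% of all genes, with SNAI1 nearest (0.69, limma adjusted p = 0.0851). FN1 could not be compared with RKO, where it had 2 to 6 reads per library.

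Between TNKSi-sensitive lines, a comparison added after the data had been seen, the FN1 response was higher in UO-31 than in ABC-1 by 1.74 (limma adjusted p = 0.00135) and than in OVCAR-4 by 1.5 (limma adjusted p = 9.9e-04), and both passed in all 8 fits without 1 library. These were 1 of 3 and 2 of 5 members, beside 5.02% and 3.01% of all genes. Between COLO 320DM and ABC-1, VIM (0.53) and FN1 (0.54) differed, 2 of 3 members beside 28.1% (highest limma adjusted p = 0.0249). In OVCAR-4 the VIM response was higher than in ABC-1 by 1.05 (limma adjusted p = 5.9e-10) and the ESRP1 response lower by 0.41 (difference -0.41, limma adjusted p = 2.3e-04), which were 2 of 5 members beside 38.2%. SNAI1 in COLO 320DM responded differently from that in UO-31 (-1.19, limma adjusted p = 0.0158, 2 of 6 members beside 2.68%) and in OVCAR-4 (-0.67, limma adjusted p = 0.00286, 2 of 4 members beside 20.1%). The SNAI1 difference from UO-31 passed in 4 of the 8 fits without 1 library (highest limma adjusted p = 0.135) and that from OVCAR-4 in 7 of 8 (highest limma adjusted p = 0.053).

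With 1 treatment effect over the 16 libraries of the TNKSi-sensitive lines, 3 members passed the filter in each line and 1, VIM, was called (log2 change 0.31, standard error 0.10, limma adjusted p = 0.0169), beside 44.1% of all genes. Without OVCAR-4 the VIM effect was 0.13 (limma adjusted p = 0.215), and without COLO 320DM it was 0.31 (limma adjusted p = 0.0654). FN1, which rose in UO-31 and fell in OVCAR-4 and ABC-1, had a pooled change of 0.07 (limma adjusted p = 0.798), and without UO-31 it was -0.31 (limma adjusted p = 0.0149).

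Ratios between members within a library do not depend on its denominator, apart from the 0.5 added to each value, and are given as a description. The log2 ratio of CDH1 over VIM was 1.23 and 1.30 with DMSO and 0.41 and 0.51 with G007-LK in OVCAR-4, whereas in ABC-1 it was 5.08 and 5.10 with DMSO and 5.50 and 5.44 with G007-LK. On this scale the 2 epithelial lines thus went in opposite directions. In OVCAR-4 the log2 ratio of CDH1 over CDH2 was nevertheless higher with G007-LK, at 4.91 and 4.79 after 4.03 and 4.08 with DMSO. In UO-31 the CDH1 over VIM ratio was -11.06 and -11.08 with DMSO and -11.29 and -11.18 with G007-LK, and in RKO it ran from -4.70 to -4.62 over the 4 libraries.

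**Figure D3:**
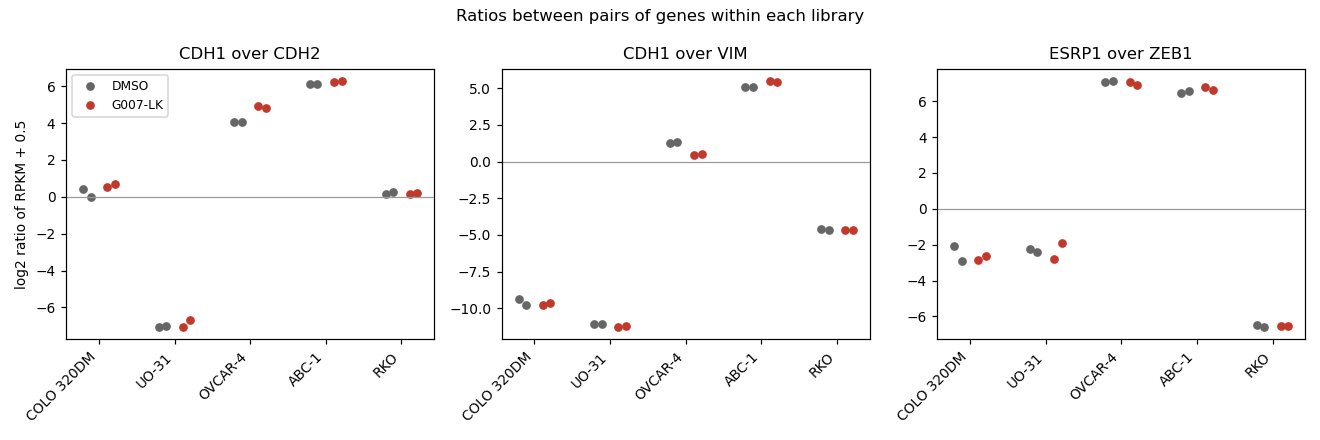
Log2 ratios of RPKM + 0.5 of CDH1 over CDH2, CDH1 over VIM and ESRP1 over ZEB1 in each library, with DMSO in gray and G007-LK in red. OVCAR-4 and ABC-1 lie above 0 in all 3 panels, and with G007-LK the CDH1 over VIM ratio is lower in OVCAR-4 (0.41 and 0.51) and higher in ABC-1 (5.50 and 5.44).

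Genes with the pattern most like each member were sought among the 14199 genes that reached a mean of 1 RPKM in a line, by the root mean square distance of centered log2(RPKM + 0.5) over the 20 libraries. CDH1 and ESRP1 were each other's nearest, at 0.20 log2 units, followed for both by CBLC (0.33 from CDH1 and 0.28 from ESRP1). CLDN7, a tight junction claudin, came next for CDH1 (0.37). EPCAM was nearest to the serine protease gene ST14 (0.67), CDH2 to the actin crosslinker FLNC (0.40), ZEB1 to ANTXR2 (0.50), ZEB2 to TMEM200A (0.25), SNAI1 to HOXB5 (0.25) and SNAI2 to HMCN1 (0.17). The nearest genes of VIM and FN1 lay further off in log2 units, with DPYSL3 at 1.32 from VIM and EFEMP1 at 0.97 from FN1. These distances were not scaled to the members' own root mean square spread, which was 1.33 for SNAI1 and 3.74 for FN1.

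The members were set beside 6 lists of related genes, 88 of them in the table. In the epithelial pair, the epithelial lists were well filled. With DMSO, all 19 epithelial regulators and surface proteins had at least 1 RPKM in OVCAR-4 and in ABC-1, against 9 in UO-31, 6 in RKO and 5 in COLO 320DM. Of 23 genes of mesenchymal adhesion and matrix, 17 reached 1 RPKM in UO-31, 16 in OVCAR-4, 7 in COLO 320DM, 6 in RKO and 4 in ABC-1. At this cut-off OVCAR-4 thus held most genes of both lists, as it held both CDH1 and VIM. A gene at 1 RPKM has a smaller share of the gene reads in OVCAR-4 than in the other lines, which favors its counts. At 10 RPKM, 11 of the 23 mesenchymal genes remained in OVCAR-4, 14 in UO-31, 4 in COLO 320DM, 3 in RKO and 2 in ABC-1.

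In ABC-1, 13 of 19 epithelial regulators and surface proteins rose and 1 fell, with a median log2 change of 0.46 beside -0.14 for all genes. EHF, an epithelial ETS factor, rose from 9.76 ± 1.44 to 20.7 ± 2.18 RPKM (SD, n = 2 each), with a log2 change of 1.05 (limma adjusted p = 8.2e-25). Of 15 epithelial junction genes 5 rose and 1 fell (9 and 1 when rescaled), with the tight junction genes TJP3 (1.05) and CLDN3 (0.76) the largest rises (highest limma adjusted p = 5.6e-33). In ABC-1, 57.9% of all genes were called, 1816 higher and 4498 lower of 10910, and in OVCAR-4 51.5%, with 1564 higher and 4841 lower of 12425. In OVCAR-4 these lists were split, with 6 of 19 regulators higher and 6 lower (10 and 4 rescaled) and 6 of 15 junction genes higher and 4 lower. Of the regulators, 2 of 5 tested rose and 1 fell in COLO 320DM (2 and 2 rescaled), 0 of 9 rose and 1 fell in UO-31 (3 and 2 rescaled) and 1 of 7 rose and 0 fell in RKO. Of the junction genes, 0 of 6 rose and 1 fell in COLO 320DM, 1 of 11 rose and 0 fell in UO-31 (3 and 2 rescaled) and 0 of 6 passed in RKO. These stand beside 19.3%, 13.4% and 4.11% of all genes called as deposited in COLO 320DM, UO-31 and RKO. On the rescaled values these shares were 38.6%, 30.1% and 2.71%. In ABC-1 the rescaled share was 63.8%, with 3422 genes higher and 3534 lower. In OVCAR-4 it was 47.0%, with 2989 higher and 2856 lower. In OVCAR-4, TJP3 (0.87), MUC1 (0.82) and CLDN4 (0.67) rose (highest limma adjusted p = 8.0e-07).

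Among the desmosome genes, JUP (plakoglobin) rose in COLO 320DM (0.97), UO-31 (0.74), ABC-1 (0.56) and OVCAR-4 (0.30), while PKP2, of desmosomal plaques, fell in ABC-1 (-1.02), OVCAR-4 (-0.89) and UO-31 (-0.58), where the highest limma adjusted p was 0.0352. Of 8 desmosome genes, 1 rose and 0 fell in COLO 320DM (1 and 2 rescaled), 1 rose and 1 fell in UO-31 (3 and 1 rescaled), 2 rose and 4 fell in OVCAR-4, and 3 rose and 2 fell in ABC-1. Among 5 such genes tested in COLO 320DM the median change was -0.25, beside the rise of JUP. In RKO 0 of 4 passed. These counts, and those of the lists that follow, are to be read against the shares of all genes given above.

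Of the mesenchymal adhesion and matrix genes, 3 of 17 tested rose and 2 fell in UO-31 (8 and 3 when rescaled), with a median log2 change of 0.30 beside -0.04 for all genes. MMP2, a matrix protease, rose there from 17.4 ± 1.25 to 40.7 ± 6.08 RPKM (SD, n = 2 each; log2 change 1.19, limma adjusted p = 2.4e-10), like FN1, and smooth muscle actin ACTA2 by 0.55 (limma adjusted p = 0.00423). In OVCAR-4, 5 of 16 rose and 10 fell (6 and 9 rescaled), with a median of -0.27 beside -0.11. NT5E (CD73) fell by 0.71 and the collagen crosslinking enzyme LOX by 0.64 in OVCAR-4 (highest limma adjusted p = 5.3e-05). In ABC-1, 0 of 4 rose and 2 fell (1 and 1 rescaled), in COLO 320DM 1 of 7 rose and 0 fell (3 and 1 rescaled), and in RKO 1 rose and 2 fell of 7 (1 and 1 rescaled).

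Other mesenchymal transcription factors were tested in small numbers. FOSL1, a subunit of AP-1, fell in OVCAR-4 (-0.76) and UO-31 (-0.67), and TCF4, a basic helix-loop-helix factor, fell in COLO 320DM (-0.52), where the highest limma adjusted p was 0.0164. These were 1 of 3, 1 of 6 and 1 of 2 tested, with 0 higher in any line as deposited and 1 higher, of 1 tested, in ABC-1 when rescaled. Of the TGF-beta pathway, whose ligands induce SNAI1 and FN1 in many cells, TGFB2 fell in OVCAR-4 (-1.16) and UO-31 (-0.70), and the receptor gene TGFBR2 fell in OVCAR-4 (-0.79) and ABC-1 (-0.78), where the highest limma adjusted p was 5.2e-05. The ligand gene TGFB1, named after its values were seen, rose in OVCAR-4 (0.28) and ABC-1 (0.33, highest limma adjusted p = 0.00448). In all, 1 of 14 rose and 6 fell in OVCAR-4 (2 and 3 rescaled), 3 of 11 rose and 5 fell in ABC-1 (4 and 4 rescaled), 0 of 11 rose and 1 fell in UO-31 (2 and 3 rescaled), 1 of 12 rose and 0 fell in COLO 320DM (1 and 1 rescaled) and 0 of 9 passed in RKO. The 7 of 14 called in OVCAR-4 are near the 51.5% of all genes there, most of which were also lower. The deposited counts in ABC-1, UO-31, COLO 320DM and RKO stand beside 57.9%, 13.4%, 19.3% and 4.11% of all genes. In UO-31, FN1 rose and TGFB2 fell, and a link between the 2 was not tested.

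**Figure D4:**
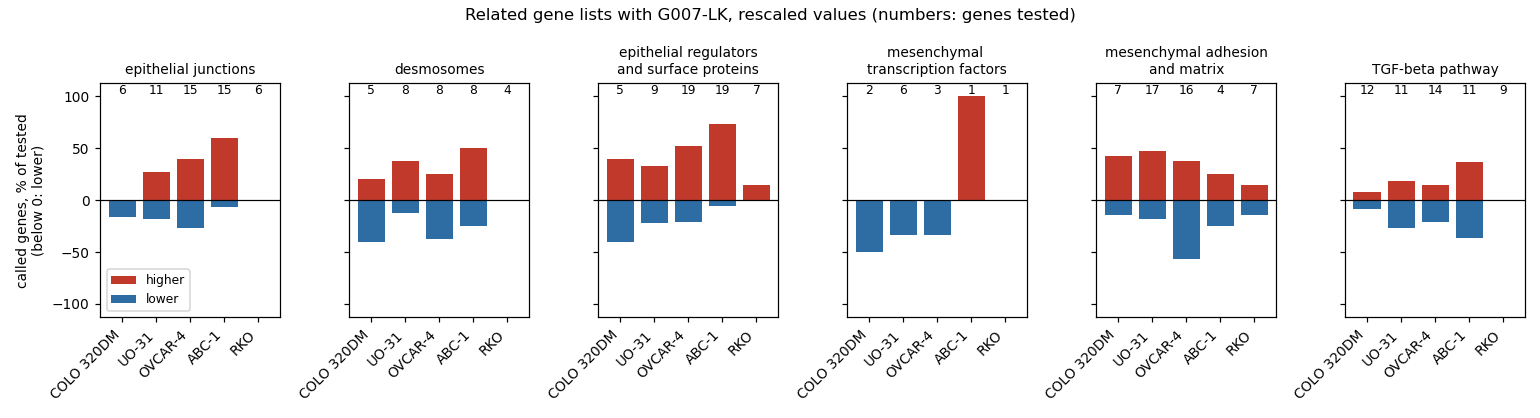
Share of the tested genes of 6 related lists called higher (red, above 0) or lower (blue, below 0) with G007-LK in each line, from the rescaled values, with the number tested above each bar. ABC-1 has 14 of 19 epithelial regulators and surface proteins higher and 1 lower, and OVCAR-4 has 6 of 16 mesenchymal adhesion and matrix genes higher and 9 lower. The bars are to be read against all genes. On these values 63.8% of them were called in ABC-1 (3422 higher, 3534 lower) and 47.0% in OVCAR-4 (2989 higher, 2856 lower).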

How the data were processed

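Per the submitters' notes and the study's methods, SOAPaligner/SOAP2 placed the reads on hg19 genes, and the authors deposited RPKM values per gene and library. The sources used here name no aligner version. Deposited log2 ratios and NOISeq probabilities of the authors' own comparisons were not used. Missing values were taken as 0, 8 entries without symbol (at most 0.00134% of the RPKM) were left out, and 371 symbols on several entries were joined. Whole reads were recovered from the spacing of RPKM values (tolerance 0.05 reads), but the main tests used the deposited values. Limits from 0 reads (3 reads) cover counting error only.

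Genes whose mean reached 1 RPKM were tested with limma 3.58.1 (trend and robust estimation, statmod 1.5.0, R 4.3.3) on log2(RPKM + 0.5), with Benjamini-Hochberg adjustment and a threshold of 0.05. Fold changes on this scale understate the change of low genes. Differences from RKO were interactions over 8 libraries and genes at 1 RPKM in both lines. The script was tested on simulated data. With 2 replicates per group, p-values rest on the spread that limma shares over genes. Alternatives were pseudocounts of 0.1 and 1, no filter or 5 RPKM, median ratio rescaling, quantile normalization, a replicate block, 1 fit over all libraries, and leaving out each library or line. Scaling to gene reads, limma-voom on recovered reads, the crossed block and differences between sensitive lines were added after seeing the data. The members and lists were chosen with earlier results of these data known. Named genes are the members, up to 2 called genes per list and line with the largest change and no overlap, the 3 genes most like each member, and the markers, not all of them printed. Symbols were matched to GENCODE v44lift37 for GRCh37 positions. Python 3.11.15, numpy 2.4.6, pandas 2.3.3 and matplotlib 3.10.9 were used.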

Additional observations from a re-analysis of the deposited data

Results flagged for a closer look

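These differences between lines in the log2 change with G007-LK passed the interaction test of limma (adjusted p under 0.05). VIM changed more in OVCAR-4 than in RKO (0.84), ABC-1 (1.05), COLO 320DM (-0.52 as COLO 320DM minus OVCAR-4) and UO-31 (-0.64 as UO-31 minus OVCAR-4), and each of these 4 kept its call on the rescaled values and in all 8 fits without 1 library. VIM also changed more in COLO 320DM than in RKO (0.32) and ABC-1 (0.53), of which the first passed in 2 of 8 fits without 1 library. FN1 changed more in UO-31 than in OVCAR-4 (1.5) and ABC-1 (1.74), less in COLO 320DM than in UO-31 (-1.20, called in 3 of 8 fits without 1 library), and differed between COLO 320DM and ABC-1 (0.54, called in 5 of 8). SNAI1 differed between COLO 320DM and UO-31 (-1.19, called in 4 of 8 such fits) and between COLO 320DM and OVCAR-4 (-0.67, called in 7 of 8). ESRP1 differed between OVCAR-4 and ABC-1 (-0.41, called in 8 of 8). The differences of EPCAM between OVCAR-4 and RKO (-0.17) and between ABC-1 and RKO (-0.24) were lost on the rescaled values, at -0.06 each. The 4 differences from RKO share its libraries, and the differences between sensitive lines share theirs.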

How the results depend on the processing

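Counts of members called in a line moved by over 1.5 times under these settings. Without a filter, COLO 320DM went from 2 to 1, UO-31 from 3 to 0 and ABC-1 from 3 to 1, beside 7.09%, 4.32% and 35.4% of all genes. The 1 fit over all 20 libraries took OVCAR-4 from 5 to 2, beside 23.6% of all genes. The ABC-1 count moved less in that fit, but 0 members were called higher and 2 lower. The rises of CDH1 and ESRP1 in ABC-1 thus lost their calls there, without a filter and with the replicate block. For differences from RKO, COLO 320DM (1) gave 0 without a filter, 2 with a pseudocount of 1, rescaling, quantile normalization or gene reads, and 3 with voom. UO-31 (0) gave 1 without a filter, rescaled, with quantiles, gene reads or voom. OVCAR-4 (2) gave 1 and ABC-1 (1) gave 0 at 5 RPKM, rescaled, with quantiles, gene reads or voom. At 5 RPKM no member was left to test in the pooled fit or for ABC-1, which fixes these counts at 0. The pooled count (1) was 0 at 5 RPKM, 2 rescaled, and 0, 2 and 0 without COLO 320DM, UO-31 and OVCAR-4. The fits without 1 library, given next, leave 1 library in a group. How many genes of any kind passed moved widely between them. The median change of all genes in UO-31, for example, ran from -0.20 to 0.11. Their member counts are thus not read as a trait of the members.

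Leaving out 1 library gave 1 to 3 called members in ABC-1 and in COLO 320DM, 3 to 5 in OVCAR-4, 1 to 6 in UO-31, 0 to 0 in RKO and 1 to 1 in the pooled fit. Differences from RKO gave 0 to 2 for ABC-1, 0 to 3 for COLO 320DM and UO-31, and 1 to 2 for OVCAR-4, and neighboring DMSO levels 31 to 32 of 40.

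The replicate numbers mark no stated pairing. With the number as a replicate block, COLO 320DM and ABC-1 kept 1 called member each, beside 6.76% and 44.9% of all genes. COLO 320DM and ABC-1 against RKO had 0, beside 2.94% and 39.4%. Deviations of same-numbered libraries correlated at -0.254 in COLO 320DM and in ABC-1 and between -0.0208 and 0.0551 in the other lines. With crossed pairs, COLO 320DM had 3 and ABC-1 had 4 called members, beside 46.1% and 71.6% of all genes.

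Signs turned for these uncalled changes, given with their range when 1 library was left out. In COLO 320DM, ZEB2 (-0.03) was 0.049 with gene reads and 0.055 with voom (-0.23 to 0.17), FN1 (-0.03) was 0.038 and 0.053 (-0.13 to 0.081), and ZEB1 (0.28) ran from -0.0099 to 0.57. In UO-31, ZEB2 (0.00) was -0.0028 with a pseudocount of 0.1, -0.038 with quantiles, -0.0044 with gene reads and -0.0071 with voom (-0.27 to 0.27), and EPCAM (-0.05) was 0.016 with quantiles (-0.14 to 0.044). There ZEB1 (0.09) ran from -0.27 to 0.46 and CDH2 (-0.12) from -0.34 to 0.10. EPCAM in OVCAR-4 (-0.02) was 0.093 rescaled, 0.011 with quantiles, 0.053 with gene reads and 0.054 with voom (-0.043 to 0.0020), and in ABC-1 (-0.09) it was 0.063 rescaled, 0.087 with quantiles and 0.057 with gene reads and voom. In RKO, VIM (0.03) ran from -0.050 to 0.10 and SNAI1 (0.01) from -0.089 to 0.11. The causes were not tested. Over all alternatives, 82 values of single genes lost and 20 gained a call, and counts of members moved in 63 cases, with 21 more for differences between sensitive lines. Depth limits genes with a few reads, such as ESRP1 in RKO.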
